A study of Mus musculus with 12 samples.

Results

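The genes described here are 8 transcription factors and cofactors of the GATA circuit of blood cells, Gata1, Gata2, Gata3, Zfpm1, Tal1, Klf1, Gfi1 and Gfi1b, taken by gene symbol from the count files and followed across the 4 groups of the study. They are 8 of the 23362 genes counted. Each group had 3 RNA-seq libraries, made from the polyadenylated RNA of cells of C57BL/6 mice. GATA2-GMP KO and GATA2-GMP WT were granulocyte-macrophage progenitors (GMP), of Xbp1-deficient and of wild-type genotype, that had been sorted, transduced with GATA2, sorted again and kept in culture for 48 hours. GMP KO and GMP WT were GMP of the same genotypes that went straight from the sorter into Trizol, with neither vector nor culture. The RNA of both GATA2-GMP groups was amplified with a SMARTer low input kit before the TruSeq library step that all groups shared. Stage, vector, culture and kit therefore changed together and cannot be told apart. The study asked which transcripts depend on XBP1, which switches on chaperone and secretory genes when the endoplasmic reticulum is loaded, at these stages of eosinophil development. Which Xbp1 allele was used, in which cells the gene was lost, the species of the GATA2 insert and the animals behind the replicate numbers are not given in the labels. The p-values below measure the spread between these libraries, which may in part be technical.

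GATA factors are zinc finger proteins that bind the DNA letters GATA. GATA2 acts in stem cells, mast cells and early progenitors, GATA1 in erythroid cells, megakaryocytes, eosinophils and mast cells, and GATA3 in T cells and type 2 lymphocytes. Zfpm1 encodes FOG1, a cofactor that binds the GATA zinc finger and is required for erythroid cells and megakaryocytes; in chicken progenitors its loss is needed for the eosinophil fate. TAL1 binds DNA beside GATA1 or GATA2 in a complex with LMO2 and LDB1, and KLF1 switches on globin and other erythroid genes. GFI1 and GFI1B are related repressors that recruit LSD1 and CoREST: GFI1 is used by neutrophil progenitors and stem cells, GFI1B by erythroid cells and megakaryocytes.

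Library totals ran between 8219366 counts (GMP KO 3) and 33640911 counts (GMP KO 2). CPM are counts scaled to library size over all 12 libraries, and in GMP KO 3, the smallest library, 19 counts of Gata1 made 1.70 CPM. Xbp1 had 99.9 to 128 CPM in GATA2-GMP KO against 197 to 381 CPM in GATA2-GMP WT, and 55.9 to 89.8 CPM in GMP KO against 131 to 153 CPM in GMP WT. The KO libraries were thus the lower ones in both stages, with log2 fold changes of -1.28 (SE 0.27, edgeR adjusted p = 0.0959) and -1.06 (SE 0.21, edgeR adjusted p = 0.0919), neither past the threshold of 0.05. Both passed by DESeq2, with an adjusted p of 0.00182 in GATA2-GMP and 0.000752 in GMP. By edgeR the GATA2-GMP difference passed without the filter on low counts (adjusted p = 0.00459), in 1 fit of all libraries (0.00718) and without GATA2-GMP WT 3 (0.0131), and the GMP difference without GMP KO 1 (5.20e-07); over all alternatives the adjusted p reached 0.456 in GATA2-GMP and 0.247 in GMP. A count per gene cannot separate an intact transcript from one with a deleted exon. Eosinophil genes summed to 56535 to 68607 CPM in GATA2-GMP KO and 136062 to 207552 CPM in GATA2-GMP WT, against 372 to 720.0 CPM in GMP KO and 129.5 to 341 CPM in GMP WT. GMP and neutrophil primary granule genes summed to 22490 to 28648 CPM over the 6 GMP libraries.

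The 8 genes formed a different order of levels in each stage. The levels are given here as mean CPM per kilobase of the longest annotated transcript. In GATA2-GMP KO they were led by Gata2 (82.4) and Gata1 (61.8), whose ranges overlapped, followed by Gfi1b (26.7), Gfi1 (9.56) and Tal1 (2.40), each apart from its neighbours. In GATA2-GMP WT they were led by Gata2 (90.0) and Gata1 (83.4), again with overlap, followed by Gfi1b (52.0), Gfi1 (9.07) and Tal1 (3.35). Gata3, Klf1 and Zfpm1 came last in both, between 0.110 and 0.367, and neighbours among them overlapped. Sorted GMP had another order, with Gfi1 first. The means in GMP KO were 68.0 for Gfi1, 11.02 for Tal1, 8.45 for Gata2 and 1.82 for Zfpm1, and in GMP WT they were 53.9 for Gfi1, 10.5 for Tal1, 8.86 for Gata2 and 2.68 for Zfpm1. Tal1 and Gata2 did not differ beyond their spread in GMP WT. Gata1, Gfi1b and Klf1 lay between 0.392 and 0.985 in both GMP groups, and Gata3 was nearly silent.

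**Figure D1:**
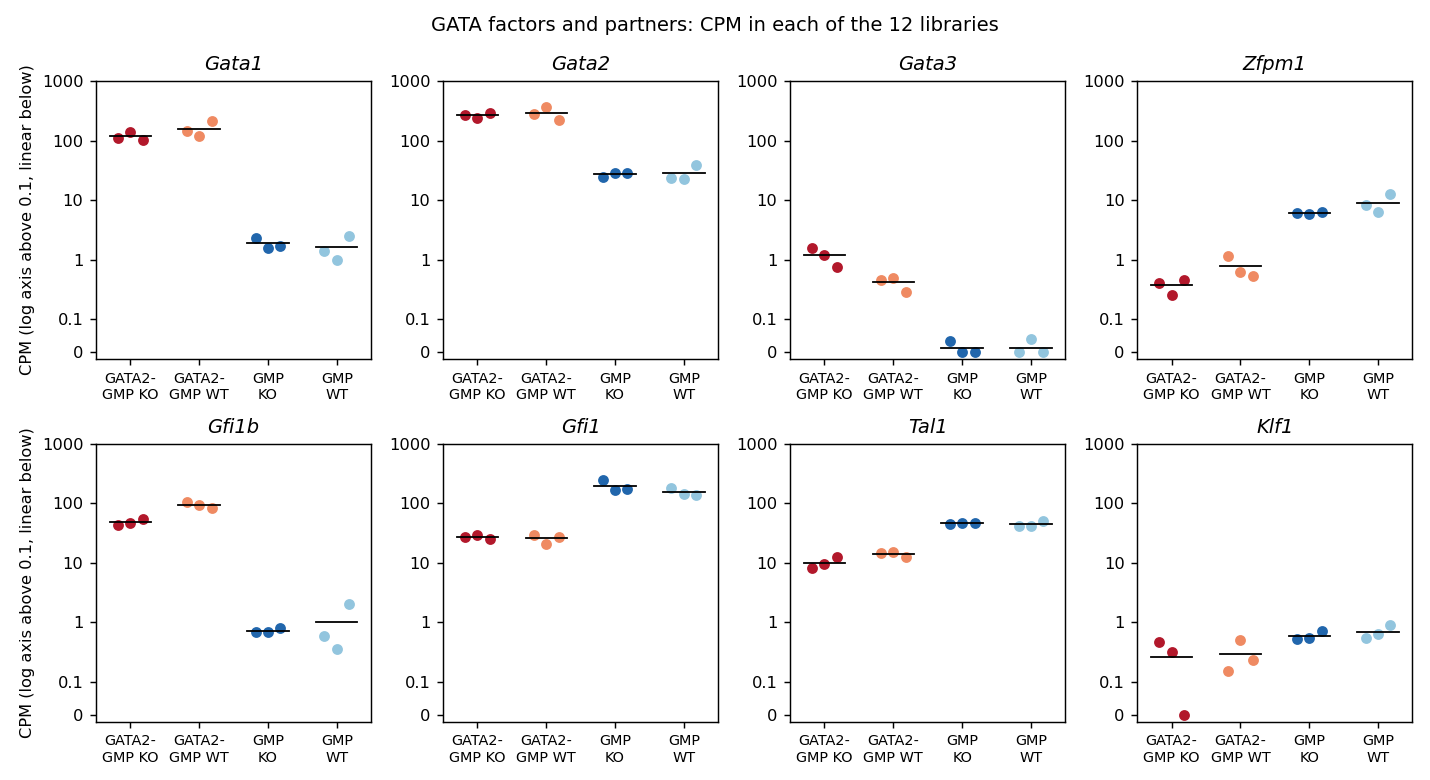
CPM of each gene in the 12 libraries, on an axis that is logarithmic above 0.1 CPM and linear below it; points are libraries in replicate order and lines are group means. Gata1, Gata2, Gata3 and Gfi1b are higher in every GATA2-GMP library than in every GMP library, and Zfpm1, Gfi1, Tal1 and Klf1 are lower.

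The largest difference in these genes was between the stages, and it split them into a set that was higher in GATA2-GMP and a set that was lower. In the KO libraries 7 of 8 genes tested passed (4 higher, 3 lower), where 78.6% of all genes tested did, 38.6% higher and 40.0% lower. In the WT libraries 6 of 7 passed (3 higher, 3 lower), where 70.5% of all genes did, 34.1% higher and 36.4% lower. The libraries of the stages did not overlap for any of the 8 genes in KO or of the 7 in WT, which was so for 82.4% of all genes tested in KO and 77.2% in WT. In these counts the 8 genes are thus much like any other gene here, and what follows concerns sizes. Gata3 did not pass the filter on low counts within GMP, nor did Zfpm1 and Klf1 within GATA2-GMP, so these entered the stage tests through the stage where they are high. The other 5 passed the filter within both stages, and in each genotype Gata1, Gata2 and Gfi1b rose and Gfi1 and Tal1 fell. The KO and WT comparisons use separate libraries.

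Gata1, on chromosome X from 7536386 to 7555197 (minus strand, mm9), had 111, 140 and 102 CPM in GATA2-GMP KO and 145, 121 and 210 CPM in GATA2-GMP WT, against 2.36, 1.56 and 1.70 CPM in GMP KO and 1.41, 0.997 and 2.50 CPM in GMP WT. Every transduced library was far above every sorted one. The log2 fold change was 5.97 (SE 0.23, edgeR adjusted p = 1.87e-07) in KO cells and 6.62 (SE 0.41, edgeR adjusted p = 8.58e-06) in WT cells. Of all genes tested that have an annotated transcript, 2.68% in KO and 2.002% in WT had a log2 fold change at or above that of Gata1. In GMP the gene rested on 19 to 68 counts per library.

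Gata2, the factor that was transduced, lies on chromosome 6 from 88143885 to 88157024 (plus strand). It had 273, 235 and 293 CPM in GATA2-GMP KO and 282, 370 and 223 CPM in GATA2-GMP WT, against 24.8, 28.3 and 29.1 CPM in GMP KO and 24.0, 22.5 and 39.7 CPM in GMP WT. Its rise by 3.30 in KO (SE 0.16, edgeR adjusted p = 2.97e-07) and 3.35 in WT (SE 0.30, edgeR adjusted p = 4.24e-05) on the log2 scale was smaller than that of Gata1. The GMP libraries held 325 to 1230 Gata2 counts each. Reads of a vector could be counted as Gata2, and reads of vector and endogenous gene cannot be told apart in these counts. Within each GATA2-GMP genotype the 3 libraries ranked in opposite order for Gata1 and for Gata2: Gata1 was highest in KO 2 and WT 3, where Gata2 was lowest, and lowest in KO 3 and WT 2, where Gata2 was highest. The summed mast cell and basophil genes were highest in the libraries with the most Gata2, at 14882 CPM in KO 3 and 14925 CPM in WT 2, against 9173 and 9448 CPM in the other KO libraries and 5386 and 6591 CPM in the other WT libraries. This is a description of 3 libraries a group, and the part of mast cells or basophils in it was not tested.

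Gata3, on chromosome 2 from 9778705 to 9811661 (minus strand), was at the limit of detection in GMP. It had 27, 19 and 10 counts in GATA2-GMP KO (1.58, 1.22 and 0.751 CPM) and 6, 8 and 5 counts in GATA2-GMP WT (0.464, 0.502 and 0.291 CPM), against 1 count in all over the 3 GMP KO libraries and 1 over the 3 GMP WT libraries. Each GATA2-GMP library was above each GMP library. The ratio of summed counts per library size was 100.5 in KO (95% counting interval 17.3 to 4038) and 28.3 in WT (4.49 to 1175). The KO comparison had an edgeR adjusted p = 9.38e-05, but the gene was in that test only through the GATA2-GMP KO counts, and the WT comparison had too few counts to be tested. In this annotation 155 exon bases of Gata3 overlap Gm13256, a transcript of the opposite strand, and 77 overlap 9230102O04Rik, so part of so few reads could belong to them; the strand setting of the counting is not given in the sources used here. T cell genes, as a marker list of 15, summed to 62.6 to 126 CPM in GATA2-GMP KO and 42.3 to 77.6 CPM in GATA2-GMP WT, against 8.87 to 12.1 CPM in GMP KO and 7.70 to 8.93 CPM in GMP WT. At 0 in GATA2-GMP were Cd2 and Cd5 in both genotypes and Cd3e and Zap70 in WT. Other markers rose: Cd3d, a chain of the T cell receptor complex, had 2.35 ± 1.22 CPM in GATA2-GMP KO against 0.0077 ± 0.013 CPM in GMP KO and 2.27 ± 0.396 CPM in GATA2-GMP WT against 0.028 ± 0.049 CPM in GMP WT. Cd3d was in the stage tests only through its GATA2-GMP counts. Lat, an adaptor of T cells and mast cells, rose by 4.23 in WT. The part of T cells in the Gata3 reads was not tested.

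Gfi1b and Gfi1 moved in opposite directions between the stages, so that the pair changed places. Gfi1b, on chromosome 2 from 28464970 to 28477502 (minus strand), had 44.0, 46.9 and 55.2 CPM in GATA2-GMP KO and 106, 94.5 and 83.7 CPM in GATA2-GMP WT, against 0.679, 0.690 and 0.806 CPM in GMP KO and 0.598, 0.359 and 2.05 CPM in GMP WT. It rose by 6.10 on the log2 scale in KO (SE 0.20, edgeR adjusted p = 1.02e-07) and by 6.61 in WT (SE 0.56, edgeR adjusted p = 3.06e-05), much as Gata1 did. Gfi1, on chromosome 5 from 108145674 to 108155056 (minus strand), had 27.7, 29.0 and 25.4 CPM in GATA2-GMP KO and 29.6, 20.6 and 27.7 CPM in GATA2-GMP WT, against 242, 166 and 176 CPM in GMP KO and 181, 146 and 137 CPM in GMP WT. It fell by 2.82 in KO (SE 0.18, edgeR adjusted p = 1.60e-06) and by 2.56 in WT (SE 0.20, edgeR adjusted p = 2.26e-05). It still had 329 to 475 counts in every transduced library. An opposite-strand lincRNA, A430072P03Rik, shares 101 exon bases with Gfi1.

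Zfpm1 and Tal1 fell and Klf1 was lower without passing the test. Zfpm1, on chromosome 8 from 124806039 to 124861146 (plus strand), had 0.408, 0.256 and 0.451 CPM in GATA2-GMP KO and 1.16, 0.628 and 0.525 CPM in GATA2-GMP WT, against 6.15, 5.95 and 6.36 CPM in GMP KO and 8.29, 6.30 and 12.6 CPM in GMP WT. It had 4 to 15 counts per transduced library, and its log2 fold change was -4.03 in KO (SE 0.32, edgeR adjusted p = 4.70e-06) and -3.57 in WT (SE 0.43, edgeR adjusted p = 0.000176). Zfpm1 was in these tests only through its GMP counts. Tal1, on chromosome 4 from 114729031 to 114744360 (plus strand), had 8.34, 9.73 and 12.3 CPM in GATA2-GMP KO and 14.7, 15.1 and 12.5 CPM in GATA2-GMP WT, against 44.98, 47.4 and 46.9 CPM in GMP KO and 41.6, 40.8 and 50.4 CPM in GMP WT. Its log2 fold change was -2.19 in KO (SE 0.17, edgeR adjusted p = 4.67e-06) and -1.64 in WT (SE 0.18, edgeR adjusted p = 9.31e-05), the smallest of the called ones in size. Klf1, on chromosome 8 from 87425827 to 87429194 (plus strand), had 8, 5 and 0 counts in GATA2-GMP KO and 2, 8 and 4 in GATA2-GMP WT, against 15, 24 and 8 in GMP KO and 13, 16 and 18 in GMP WT. Its log2 fold change was -1.05 in KO (SE 0.68, edgeR adjusted p = 0.183) and -1.18 in WT (SE 0.54, edgeR adjusted p = 0.0839), past the threshold in neither. The WT difference passed by edgeR without GATA2-GMP WT 2 (-1.73, adjusted p = 0.0303) and with library totals alone (-1.998, adjusted p = 0.00970), and in KO the value was -1.74 without GATA2-GMP KO 1 and -0.55 without GATA2-GMP KO 3, neither of which passed. In bulk RNA fewer cells that express a gene and less RNA per cell cannot be told apart.

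**Figure D2:**
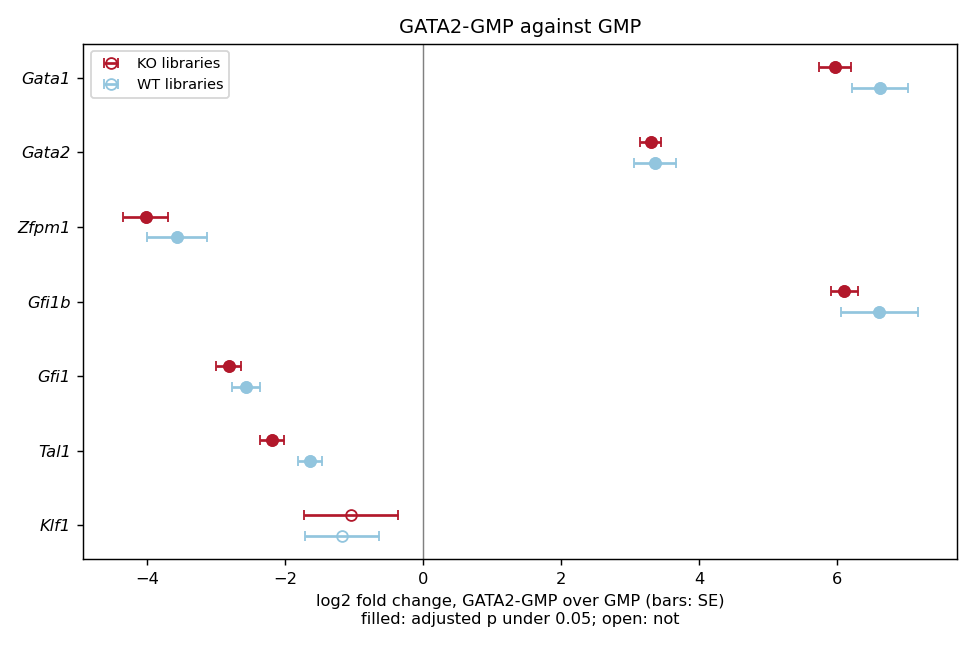
Log2 fold change of GATA2-GMP over GMP (x axis) for 7 genes, in KO and in WT libraries, with the SE as bars and filled points where the adjusted p was under 0.05. Gata1 and Gfi1b lie near 6 in both genotypes, Gata2 near 3, and Zfpm1, Gfi1 and Tal1 below 0; Gata3 is left out because it rests on 1 count in each GMP group.

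The falls stood beside a trend with the GC content of transcripts that ran through all genes. In the KO comparison the median log2 fold change was 0.52 for genes with at most 45% GC, -1.06 for 55 to 60%, -2.89 for 60 to 65% and -3.15 for over 65%, over 2827, 2244, 440 and 34 genes. In the WT comparison it was 0.38, -0.90, -2.54 and -2.49, over 2796, 2218, 431 and 33 genes. Zfpm1 has the GC-richest transcript of the 8 at 66.9%, and among genes over 65% GC, Zfpm1 included, 44.1% in KO and 39.4% in WT had a log2 fold change as low or lower. Klf1, at 61.1%, was less far down than the median of its bin in both genotypes. Gfi1 (57.3% GC) and Tal1 (52.8%) were below the medians of their bins, which for 50 to 55% were -0.16 in KO and -0.18 in WT. Gata1, Gata2 and Gfi1b, at 55.2%, 57.0% and 57.5% GC, rose in a bin whose median was below 0. The part of base composition in the falls was not tested.

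**Figure D3:**
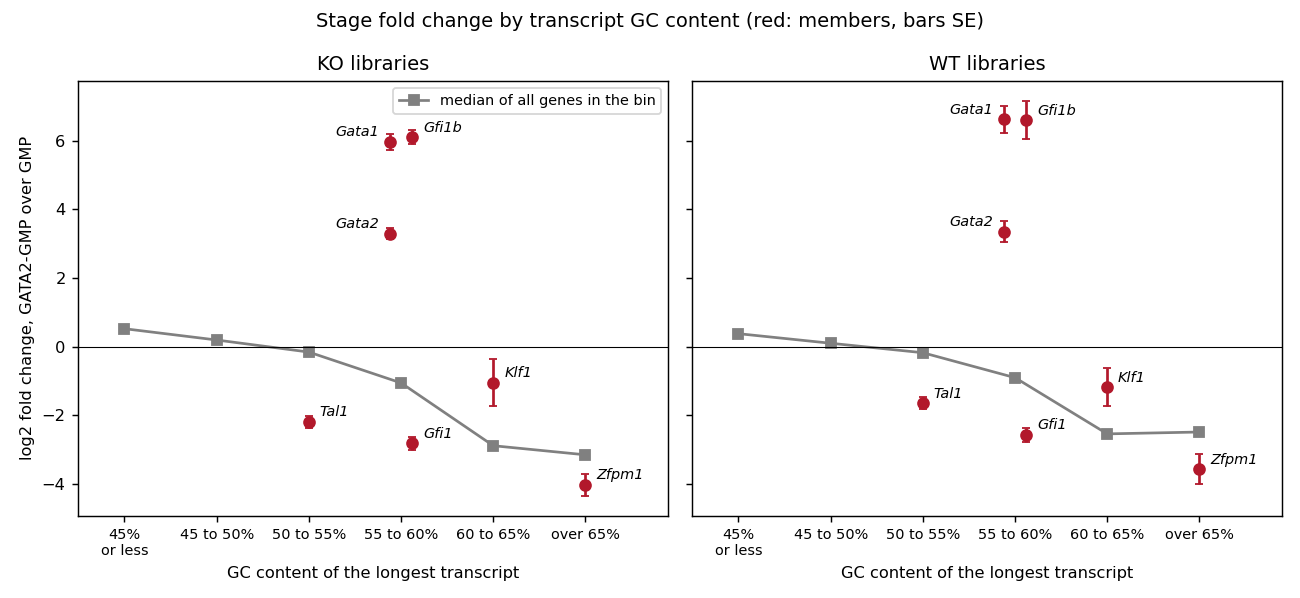
Log2 fold change of GATA2-GMP over GMP against bins of GC content of the longest transcript, in KO (left) and WT (right); grey squares are the medians of all genes with a value and red points are the genes named, with SE. The medians go down with GC, to -3.15 in KO and -2.49 in WT over 65%, and Zfpm1 lies below them while Klf1 lies above the median of its bin.

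Gata1 and Gfi1b shared the step between the stages, with a root mean square difference of 0.44 between their centred log2 CPM over the 12 libraries. Within GATA2-GMP they ranked the libraries differently: WT 3 was highest for Gata1 and lowest for Gfi1b, and KO 3 was lowest for Gata1 and highest for Gfi1b. Their upstream sequences are shown for the shared step, beside those of Tal1 and Klf1, which went the other way and hold the remaining GATA letters. The sequences are the 250 bases before an annotated transcript start in mm9, 5' to 3' on the strand of the gene, with capitals for TGATAA or TGATAG and for AGATAA or AGATAG, on either strand. These are, in order, chrX:7545037-7545286 (minus), chr2:28477503-28477752 (minus), chr4:114728781-114729030 (plus) and chr8:87425577-87425826 (plus).
Gata1: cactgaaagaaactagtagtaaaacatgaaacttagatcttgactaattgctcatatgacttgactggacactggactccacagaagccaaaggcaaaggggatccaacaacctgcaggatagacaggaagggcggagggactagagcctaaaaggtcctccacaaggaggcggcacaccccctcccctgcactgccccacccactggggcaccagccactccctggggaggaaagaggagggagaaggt
Gfi1b: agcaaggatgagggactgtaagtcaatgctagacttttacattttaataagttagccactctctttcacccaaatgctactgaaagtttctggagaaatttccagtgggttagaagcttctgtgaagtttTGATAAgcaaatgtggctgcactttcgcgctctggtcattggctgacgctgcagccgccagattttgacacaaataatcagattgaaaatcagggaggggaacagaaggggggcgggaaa
Tal1: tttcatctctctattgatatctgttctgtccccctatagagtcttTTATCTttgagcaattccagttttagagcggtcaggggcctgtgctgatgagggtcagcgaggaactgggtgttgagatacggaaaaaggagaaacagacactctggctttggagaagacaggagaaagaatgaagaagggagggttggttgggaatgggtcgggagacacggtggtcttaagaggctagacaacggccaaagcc
Klf1: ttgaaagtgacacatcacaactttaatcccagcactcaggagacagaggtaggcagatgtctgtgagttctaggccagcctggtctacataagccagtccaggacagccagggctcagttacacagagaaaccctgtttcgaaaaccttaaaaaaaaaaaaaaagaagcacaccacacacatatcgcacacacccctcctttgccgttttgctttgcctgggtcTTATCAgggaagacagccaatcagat
The letters occur at position -120 from the start for Gfi1b, -205 for Tal1 and -26 for Klf1, and not in the window shown for Gata1. Windows were taken at the starts of transcripts in the basic set of the annotation, 14 for the 8 genes. Of these, 4 windows hold the letters, 2 of which are overlapping windows of Gfi1b, while 23.4% of all 43327 such windows do. Starts outside that set, such as that of Gata1 at 7555197, were not searched. The letters AAATCA, the core that GFI1 and GFI1B bind, occur in both Gfi1b windows, at -34 and -71 from their starts, and in 10.96% of all windows. The core ACGTG of XBP1 sites is in none of the 14 windows and in 17.7% of all. A match is a run of letters and says nothing of binding in these cells.

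By edgeR none of the 8 genes passed for genotype in either stage. In GATA2-GMP 0 of the 6 genes tested passed edgeR's test, as 0.376% of all 11699 did (44 genes), and 2 had an unadjusted p under 0.05, Gata3 and Gfi1b. By DESeq2 1 of the 6 passed, Gfi1b, where 4.85% of all genes did. Groups that did not overlap between KO and WT were found for 3 of the 6 (Gata3 higher, Gfi1b and Tal1 lower) and for 22.6% of all genes tested, 10.2% higher and 12.3% lower. The median log2 fold change of the 6 was -0.28, beside -0.0049 over all genes.

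Gfi1b had the clearest difference. The 755, 733 and 735 counts in GATA2-GMP KO gave 48.7 ± 5.80 CPM, and the 1370, 1505 and 1436 counts in GATA2-GMP WT gave 94.7 ± 11.2 CPM (SD, n = 3 each), with every KO library below every WT library. The log2 fold change was -0.96 (SE 0.21) with an unadjusted p = 0.00130 and an adjusted p = 0.0974 by edgeR's quasi-likelihood test, which is short of the threshold. It passed by DESeq2 (-0.94, adjusted p = 0.00293), by edgeR without the filter on low counts (adjusted p = 0.0424) and by edgeR without GATA2-GMP WT 3 (-1.04, adjusted p = 0.0307). Over all alternatives the log2 fold change stayed between -1.06 and -0.78 and the adjusted p between 0.00293 and 0.461. Genes of 55 to 60% GC, as Gfi1b is, had a median of -0.08, and 5.43% of them were as low as Gfi1b or lower.

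Gata3 had 1.18 ± 0.413 CPM in GATA2-GMP KO and 0.419 ± 0.112 CPM in GATA2-GMP WT, a ratio of summed counts of 2.94 (95% counting interval 1.72 to 5.25) with a log2 fold change of 1.49 (SE 0.62, edgeR adjusted p = 0.303). The lowest KO library was above the highest WT library and the unadjusted p by edgeR was 0.0373, but the difference did not pass after adjustment over all genes tested. The T cell list was higher too, though with overlap, at 62.6 to 126 CPM in GATA2-GMP KO and 42.3 to 77.6 CPM in GATA2-GMP WT, and the monocyte and macrophage list without overlap, at 306 to 521 CPM in GATA2-GMP KO and 162 to 303 CPM in GATA2-GMP WT. Their part in the Gata3 difference was not tested. Tal1 had 10.1 ± 2.02 CPM in GATA2-GMP KO and 14.1 ± 1.37 CPM in GATA2-GMP WT, with a log2 fold change of -0.47 (SE 0.26, edgeR adjusted p = 0.444).

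Both GATA factors of the eosinophil and mast cell lineages were without a detectable genotype difference in the transduced cells. Gata1 had 117 ± 19.8 CPM in GATA2-GMP KO and 159 ± 46.2 CPM in GATA2-GMP WT, a log2 fold change of -0.43 (SE 0.26, edgeR adjusted p = 0.477). Gata2 had 267 ± 29.4 CPM in GATA2-GMP KO and 292 ± 73.9 CPM in GATA2-GMP WT, a log2 fold change of -0.12 (SE 0.25, edgeR adjusted p = 0.859), which became 0.060 when library totals alone were used for scaling. Gata2 counts, which may or may not include vector reads, thus did not separate the genotypes beyond the spread. The level of the vector itself was not measured. Gfi1 had 27.4 ± 1.83 CPM in GATA2-GMP KO and 26.0 ± 4.70 CPM in GATA2-GMP WT (log2 fold change 0.08, SE 0.23, edgeR adjusted p = 0.907). Zfpm1, with 17 counts in all in GATA2-GMP KO and 34 in GATA2-GMP WT, was too low to be tested, and so was Klf1, with 13 counts in GATA2-GMP KO and 14 in GATA2-GMP WT. Each Zfpm1 value in KO was below each in WT, at 0.256 to 0.451 CPM and 0.525 to 1.16 CPM.

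In sorted GMP 0 of the 7 genes tested passed, as 3.17% of all 12002 did (381 genes), and 1 had an unadjusted p under 0.05, Zfpm1. No gene of the 7 had groups that did not overlap, which 19.4% of all genes had. Zfpm1 had 6.15 ± 0.204 CPM in GMP KO and 9.08 ± 3.24 CPM in GMP WT, a log2 fold change of -0.58 (SE 0.24, edgeR adjusted p = 0.313), and passed only without GMP WT 2 (-0.79, adjusted p = 0.0409). Gfi1 had 195 ± 41.4 CPM in GMP KO and 154 ± 23.4 CPM in GMP WT, a log2 fold change of 0.32 (SE 0.18, edgeR adjusted p = 0.491). With the replicate numbers as a block, Gfi1 was 0.31 higher (SE 0.054, edgeR adjusted p = 0.00119), as each KO library exceeded the WT library of its number. The labels do not say that equal numbers mark pairs. The numbers were taken as pairs in GMP because same-numbered libraries deviated together in these same counts. Under that block 8.03% of all genes passed (964) and 1 of the 7. Zfpm1 stayed just outside it, at -0.47 (adjusted p = 0.0504).

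The other genes of sorted GMP differed little. Gata2 had 27.4 ± 2.29 CPM in GMP KO and 28.7 ± 9.54 CPM in GMP WT (log2 fold change -0.08, SE 0.25). Tal1 had 46.4 ± 1.27 CPM in GMP KO and 44.3 ± 5.32 CPM in GMP WT (log2 fold change 0.05, SE 0.087). The genes low in GMP had wide errors. Gata1 had 1.87 ± 0.425 CPM in GMP KO and 1.64 ± 0.776 CPM in GMP WT (log2 fold change 0.20, SE 0.32). Gfi1b had 0.725 ± 0.0707 CPM in GMP KO and 1.002 ± 0.915 CPM in GMP WT (log2 fold change -0.47, SE 0.59). Klf1 had 0.601 ± 0.1001 CPM in GMP KO and 0.698 ± 0.180 CPM in GMP WT (log2 fold change -0.28, SE 0.33). Their adjusted p by edgeR ran between 0.744 and 0.916. GMP WT 3 had the highest value of its group for Gata1, Gata2, Zfpm1, Tal1, Klf1 and Gfi1b and the lowest for Gfi1. Its erythroid and megakaryocyte genes summed to 207 CPM, against 165 and 174 CPM in the other GMP WT libraries, and its part in these values was not tested. Without it the log2 fold change of Gfi1b was 0.55 and that of Gata2 0.22, of opposite sign to the values with it, and neither passed.

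**Figure D4:**
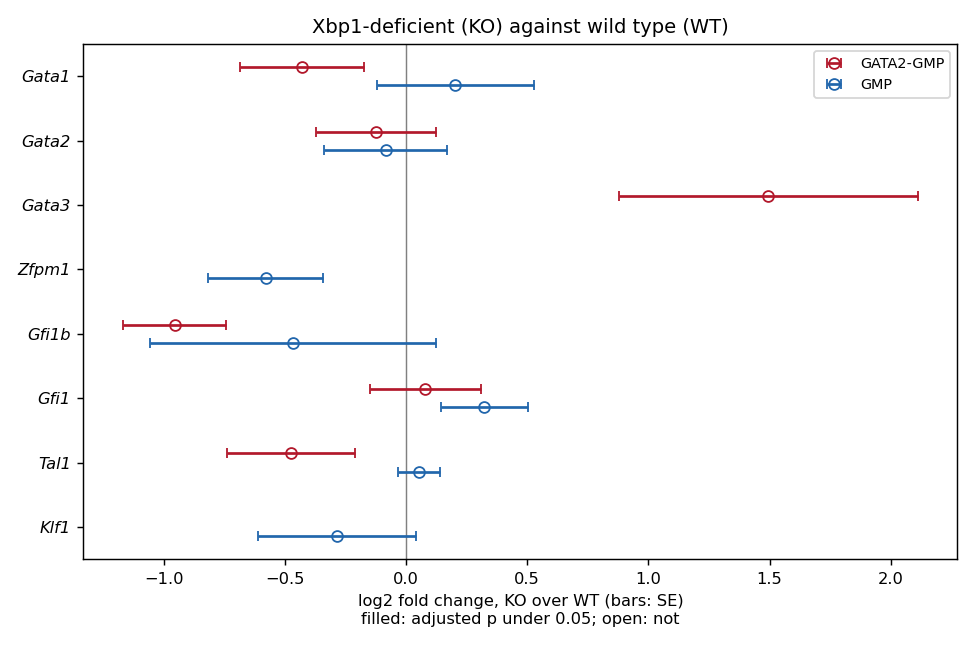
Log2 fold change of KO over WT (x axis) with the SE as bars, in GATA2-GMP and in GMP, for the genes tested in each. No point is filled, since no adjusted p was under 0.05 by edgeR; Gfi1b in GATA2-GMP lies at -0.96 and Gata3 at 1.49.

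Whether the genotype acted differently in the stages was tested as an interaction over all 12 libraries. None of the 8 genes passed, as 0.0859% of all 12803 did (11 genes), and 1 had an unadjusted p under 0.05. That gene was Tal1, at -0.55 (SE 0.24, unadjusted p = 0.0378, edgeR adjusted p = 0.304). Gata3 had the largest value with the widest error, 1.67 (SE 1.97), and Gata1 was at -0.66 (SE 0.43) and Gfi1b at -0.52 (SE 0.58). The lower Gfi1b of GATA2-GMP KO is therefore not shown to be particular to that stage.

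The ratio of Gfi1b to Gfi1 counts within a library needs no scaling between libraries. It was 1.59, 1.62 and 2.17 in GATA2-GMP KO and 3.59, 4.57 and 3.02 in GATA2-GMP WT, so that Gfi1b exceeded Gfi1 in all 6 libraries and by less in each KO library. The difference in mean log2 ratio was -1.05, and its exact two-sided permutation p of 0.1 is the smallest that 3 against 3 libraries allow (0.4 adjusted over the 4 ratio tests). In sorted GMP it was 0.00280, 0.00415 and 0.00459 in GMP KO and 0.00331, 0.00247 and 0.0150 in GMP WT, with overlap (exact permutation p = 0.9). The ratio of Gata1 to Gata2 counts was 0.407, 0.594 and 0.347 in GATA2-GMP KO and 0.516, 0.326 and 0.941 in GATA2-GMP WT (exact permutation p = 0.7). It was 0.0951, 0.0553 and 0.0585 in GMP KO and 0.0588, 0.0444 and 0.0630 in GMP WT (exact permutation p = 0.6). Both ratios were higher in each transduced library than in each sorted one.

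**Figure D5:**
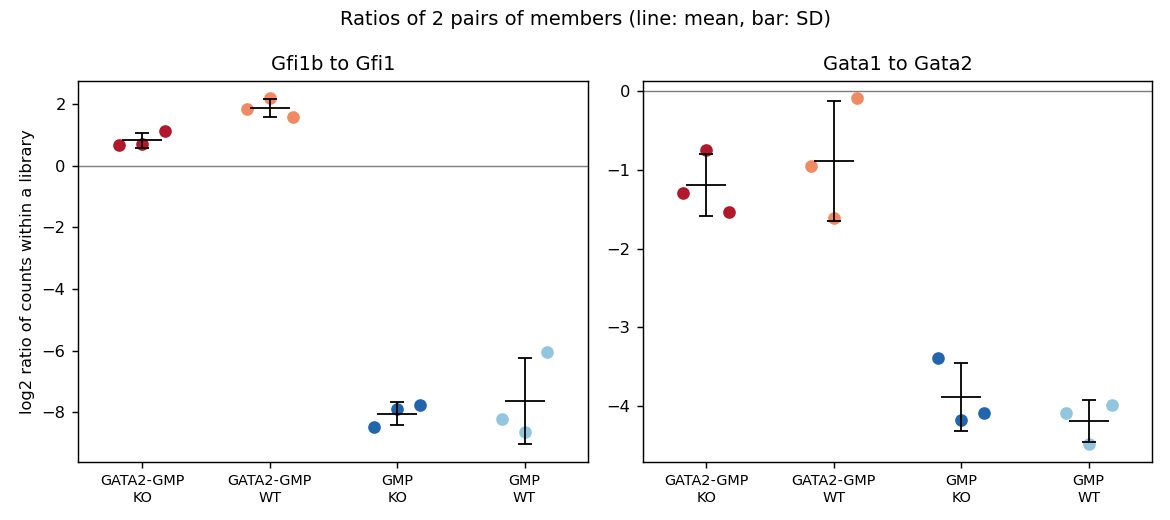
Log2 ratio of Gfi1b to Gfi1 counts (left) and of Gata1 to Gata2 counts (right) in each library, with the group mean as a line and the SD as a bar. The 3 GATA2-GMP KO libraries lie between 0.67 and 1.12 for Gfi1b to Gfi1, below the 3 GATA2-GMP WT libraries at 1.60 to 2.19.

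The proteins that work with these factors were described by lists. Their counts between the stages stand beside the shares of all genes given above, 38.6% higher and 40.0% lower in KO and 34.1% higher and 36.4% lower in WT. Of 15 genes of the TAL1, LMO2 and LDB1 complex and its partners, all were tested in each comparison. Between the stages 4 rose and 10 fell in KO (median log2 fold change -1.58, over all genes -0.05) and 5 rose and 9 fell in WT (median -2.13, over all genes -0.09). Summed, the list had 1078 to 1291 CPM in GATA2-GMP KO against 1597 to 1703 CPM in GMP KO. In WT the sums overlapped, at 1391 to 1710 CPM in GATA2-GMP WT against 1554 to 1599 CPM in GMP WT. The genes named next for the stage had the largest fold changes, and all of them fell. Ldb1, the bridging subunit, had 8.53 ± 1.63 CPM in GATA2-GMP KO and 120.3 ± 1.24 CPM in GMP KO (log2 fold change -3.81, SE 0.18, edgeR adjusted p = 3.14e-07). Tcf3, which encodes an E protein partner of TAL1, fell by 4.05 in KO and fell by 3.53 in WT. Ssbp4, of a family that stabilizes LDB1, fell by 5.80 in KO and fell by 5.37 in WT, and Erg, an ETS factor of stem cells and megakaryocytes, fell by 3.81 in WT. Their GC contents are 59.7% (Ldb1), 61.0% (Tcf3), 65.2% (Ssbp4) and 50.9% (Erg). In WT the bin of Erg, 50 to 55% GC, had a median of -0.18, and the bins of the other genes had lower medians. The part of base composition in these falls was not tested. For genotype, none of the 15 passed in GATA2-GMP (median -0.40, all genes -0.0049) and none in GMP (median 0.05). With the replicate block in GMP 4 of the 15 passed, where 8.03% of all genes did. These were Lyl1, Cbfa2t3, Ssbp4 and Sfpi1 (PU.1), all higher by 0.18 to 0.28, and they were named after their values were seen.

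The co-repressors that FOG1, GFI1 or GFI1B recruit, subunits of NuRD, LSD1-CoREST and CtBP, had more falls than rises with the stage. Of 20, 3 rose and 14 fell in KO (median -1.23), where 40.0% of all genes fell, and 2 rose and 11 fell in WT (median -0.85), where 36.4% did. Chd3, a NuRD helicase, had 6.92 ± 1.18 CPM in GATA2-GMP KO and 108 ± 4.31 CPM in GMP KO (log2 fold change -3.96, SE 0.17, edgeR adjusted p = 2.29e-07). Ctbp1 fell by 3.42 in KO, Mta1 fell by 3.32 in WT, and Hmg20b, of LSD1-CoREST, fell by 3.58 in KO and fell by 3.13 in WT, with transcripts of 56.8% (Ctbp1), 57.4% (Mta1) and 60.5% GC (Hmg20b). None of the 20 passed for genotype in GATA2-GMP (median -0.36) or in GMP (median 0.05).

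Genes known as repressed by GFI1 or GFI1B moved both ways with the stage, where 6 rose and 6 fell of 13 in KO and 5 rose and 6 fell in WT. Id2, an inhibitor of E proteins, had 868, 876 and 1602 CPM in GATA2-GMP KO and 1125, 1310 and 1047 CPM in GATA2-GMP WT, against 3.47, 2.64 and 3.49 CPM in GMP KO and 3.29, 1.95 and 2.299 CPM in GMP WT. It rose by 8.47 in KO (SE 0.36, edgeR adjusted p = 2.40e-07) and 8.85 in WT (SE 0.30, edgeR adjusted p = 1.91e-06), and its relative Id1 rose by 3.96 in KO and 5.03 in WT. Hoxa9, a stem and progenitor homeobox gene, fell by 5.02 in KO and fell by 5.22 in WT, and was in these tests only through its GMP counts. For genotype 1 of the 13 passed in GMP, Id1, with 5.79, 5.98 and 4.75 CPM in GMP KO and 2.95, 2.83 and 2.45 CPM in GMP WT (log2 fold change 1.003, SE 0.15, edgeR adjusted p = 0.00225). Every KO library was above every WT library, and the call held without any 1 of the 6. It was lost when all 12 libraries shared 1 estimate of the spread (edgeR adjusted p = 1.0). In GATA2-GMP none of 11 passed, Id1 included (log2 fold change -0.04, SE 0.51).

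Of the genes these factors serve in other lineages, most of the erythroid and megakaryocyte genes tested rose with the stage, and in GATA2-GMP their sum was far below those of the eosinophil genes and of the mast cell and basophil genes. The 31 erythroid and megakaryocyte genes summed to 358 to 418 CPM in GATA2-GMP KO and 379 to 447 CPM in GATA2-GMP WT, against 178 to 185 CPM in GMP KO and 165 to 207 CPM in GMP WT, and Hba-a1 and Hba-a2 (alpha globin) and Hbb-b2 (beta globin) had no counted read in any library. These globin genes have near-identical copies, so reads shared between copies could have gone uncounted. Of those tested, 10 of 13 rose and none fell in KO, and 7 of 12 rose and 1 fell in WT. Car2, a carbonic anhydrase not confined to red cells, rose by 3.14 in KO and 2.73 in WT, Rhd, a red cell antigen, by 2.68 in KO, and Icam4, an erythroid adhesion gene, by 2.85 in WT. Ppbp, a platelet chemokine gene, had 3.97, 2.94 and 2.78 CPM in GATA2-GMP KO and no read in GMP KO, but in WT the stages overlapped, at 0, 1.26 and 1.63 CPM in GATA2-GMP WT against 1.79, 0 and 0.04998 CPM in GMP WT. Rhd and Ppbp were below the filter on low counts within GMP and entered the KO stage test through GATA2-GMP KO. None of the list passed for genotype in GATA2-GMP (16 tested) or in GMP (12 tested).

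Of 11 eosinophil genes tested, 10 rose in KO and 11 in WT between the stages, where 38.6% of all genes rose in KO and 34.1% in WT. Prg2, the major basic protein, had 54896 ± 5345 CPM in GATA2-GMP KO against 310 ± 132 CPM in GMP KO, and 142268 ± 31193 CPM in GATA2-GMP WT against 106 ± 76.6 CPM in GMP WT. In GATA2-GMP 2 of the 11 passed for genotype, where 0.376% of all genes did, the ribonuclease genes Ear1 and Ear2, both lower in KO (edgeR adjusted p = 0.00899 each). The calls were lost without GATA2-GMP KO 1 (adjusted p = 0.0951) or GATA2-GMP KO 3 (adjusted p = 0.0584), and the genes are uncertain because the family has near-identical copies. Mast cell and basophil genes rose in 16 of 18 tested in KO and 14 of 16 in WT, while 1 fell in KO and 2 in WT. Of all genes 40.0% fell in KO and 36.4% in WT. Within GMP 8 of the eosinophil genes and 10 of the mast cell and basophil genes passed the filter on low counts. Others thus entered the stage tests only through GATA2-GMP, where they are high, and could only be called as rising. Cd200r3, a receptor of basophils and mast cells, had 462 ± 104 CPM in GATA2-GMP KO against 0.130 ± 0.0543 CPM in GMP KO, and 437 ± 238 CPM in GATA2-GMP WT against 0.0609 ± 0.0339 CPM in GMP WT. None of the 18 tested passed for genotype in GATA2-GMP, and 1 of 10 did in GMP, Fcer1a, a chain of the IgE receptor, at 1.49 (SE 0.32, edgeR adjusted p = 0.0224). The Fcer1a call was lost without GMP WT 1 (adjusted p = 0.106), GMP WT 2 (0.0906) or GMP KO 1 (0.0583), and in 1 fit of all 12 libraries (1.0).

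The lists of GMP and of other lineages complete the account. Of 9 GMP and neutrophil primary granule genes 2 rose and 7 fell with the stage in each genotype, among them Cd34, which fell by 4.77 in KO and fell by 4.85 in WT, and Cebpa, a myeloid transcription factor, which fell by 4.77 in KO and fell by 4.57 in WT. Elane, neutrophil elastase, was the 1 of the 9 that fell in GMP KO (-1.18, SE 0.069, edgeR adjusted p = 1.01e-05), a call that held with any 1 library left out and was lost in 1 fit of all 12 libraries (edgeR adjusted p = 0.680). Of monocyte and macrophage genes 4 rose and 5 fell of 9 in KO and 3 rose and 5 fell of 9 in WT; Irf8, a monocyte factor, had 0.202 ± 0.181 CPM in GATA2-GMP KO and 352 ± 69.7 CPM in GMP KO. Of T cell genes 5 rose and 1 fell of 8 in KO and 5 rose and none fell of 7 in WT, led by Il7r, the interleukin 7 receptor, with 25.2 ± 12.8 CPM in GATA2-GMP KO and 9.28 ± 4.196 CPM in GATA2-GMP WT. Il7r entered the stage tests through GATA2-GMP and Irf8 through GMP, the stages where they are high. With the replicate block in GMP, under which 8.03% of all genes passed, calls for genotype were added in 7 of the other lists. The genes are named here after their values were seen, with log2 fold changes between -0.31 and 1.22: Rgs18 lower, Nfe2 higher, Prg3 and Il5ra higher, Prss34 higher and Mcpt8 lower, Tcf7 higher, Prtn3 and Cd34 lower, and Ccr2 and Cd14 higher. The family members Gata4, Gata5, Gata6 and Zfpm2 (FOG2) had no read in any GMP library and together at most 0.992 CPM in GATA2-GMP, where Gata5 and Zfpm2 had none.

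The genes whose profile over the 12 libraries was most like that of a GATA factor were ranked by the root mean square difference of centred log2 CPM among 12802 genes. For Gata1 these were Il1rl1, which encodes the interleukin 33 receptor (0.28), Fam46c (0.37) and Ankrd33b (0.38), and for Gata2 they were Pqlc3 (0.21), Gstp1 (0.24) and Map1lc3b (0.25). Gfi1b was nearest to F2r, the thrombin receptor gene (0.44), to Gata1 (0.44) and to Spry4 (0.46). Il1rl1 had 234, 230.5 and 193 CPM in GATA2-GMP KO and 196, 247 and 313 CPM in GATA2-GMP WT, against 2.60 to 3.31 CPM in GMP KO and 2.39 to 3.35 CPM in GMP WT, so it shared the step between the stages and, in WT, the highest library. Zfpm1 was nearest to Ldb1 (0.27), to Ptov1 (0.28) and to Cactin (0.31), and Tal1 to Pacs2 (0.12), 0610012G03Rik (0.13) and Fam203a (0.13). Gfi1 was nearest to Map3k14 (0.17), Slco3a1 (0.20) and Trim44 (0.21). For the low genes the profile is mostly the step between stages: Gata3 was nearest to Aldoart2, Ptx3 and Aldoa (0.36 to 0.38) and Klf1 to Zfp747, Frmd4b and Trim26 (0.31 to 0.33). All 12 libraries carry the same step of stage and kit, which dominates each of these measures.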

How the data were processed

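The 12 libraries of polyadenylated RNA gave 1 table each of whole-number counts of reads per gene symbol, deposited by the authors without normalization. STAR 2.3.0, SAMtools 0.1.14, HTSeq, DESeq and build mm9 are named in the submitters' processing notes, with no roles; annotation and strand setting are not given in the sources used here. Counter rows for reads in no gene held 55.8 to 66.5% of records and were set aside. Of 27 gene names that the GMP tables held as dates, 23 were restored and 4 left out. The 23362 genes that remained were used, and no 2 libraries held the same counts.

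The quasi-likelihood test of edgeR 4.0.16 (R 4.3.3) was run on genes that passed filterByExpr with a minimum count of 10, with TMM scaling and robust fitting. Adjusted p-values are Benjamini-Hochberg values over every gene in the test, and the threshold was 0.05. Genotype was tested within each stage on 6 libraries, stage within each genotype on 6, and the interaction on all 12. Log2 fold changes are KO over WT or GATA2-GMP over GMP, and their SE was taken from the F statistic (log2 fold change over root F). CPM used TMM over the 12 libraries. Genes outside the test had too few counts for the filter. Ratios were tested by an exact permutation test over libraries. Counting intervals cover counting error only. The fitting code was also run on simulated counts with the same spread for every gene and few changed genes. That setting differs from these data, so it does not measure error rates here. In GMP the deviations of same-numbered libraries correlated at 0.26, 0.19 and 0.13, so the numbers were taken as pairs there and a fit with a replicate block is given beside results it changes; whether pairs share animals is not stated.

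Alternatives were DESeq2 1.42.0, other scaling, no filter, all libraries in 1 fit, the block, and each library left out. Sequences and gene models came from the mm9 genome with its GENCODE annotation. The 8 genes and all gene lists were chosen with earlier results of these data known, and no set test was run. Beside the 8 genes and Xbp1, the text names of each list and comparison up to 3 called genes with the largest fold change, and for each of the 8 the 3 genes most alike in centred log2 CPM with a prior count of 2. GC bins were added after the data were seen. One gene that the naming rule picked is not reported here.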

Additional observations from a re-analysis of the deposited data

Results flagged for a closer look

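Ear1 and Ear2, ribonuclease genes of eosinophils, stood out because the effect of genotype differed between the stages in edgeR's interaction test. The difference of the log2 fold changes was -6.74 for Ear1 (SE 0.92, edgeR adjusted p = 0.0277) and -6.58 for Ear2 (SE 1.01, edgeR adjusted p = 0.0321). Ear1 had 25, 36 and 31 counts in GATA2-GMP KO and 4775, 1211 and 1879 in GATA2-GMP WT, against 29, 29 and 10 in GMP KO and 22, 23 and 5 in GMP WT. Ear2 had 17, 14 and 8 counts in GATA2-GMP KO and 1684, 568 and 602 in GATA2-GMP WT, against 13, 10 and 4 in GMP KO and 7, 9 and 3 in GMP WT. Within GMP Ear2 had too few counts to be tested, and it entered the interaction test through GATA2-GMP WT, where it is high. Its interaction thus rests on the GATA2-GMP difference. With the replicate block the adjusted p was 0.291 for Ear1 and 0.147 for Ear2, and with 1 library left out it ran between 0.00220 and 0.127 for Ear1 and between 0.00220 and 0.179 for Ear2. Reads of these near-identical family members can be counted for one another.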

How the results depend on the processing

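Over the 36 pairs of 1 of the 8 genes and a comparison, 472 alternatives were run: 445 kept direction and side of the threshold, 0 lost a call, 7 gained one and 20 changed sign, with no adjusted p under the threshold among the 20. All calls of the 8 genes between the stages held under all alternatives run, though Gata3 and Zfpm1 were in those tests only through the stage where they are high. The cause of the changes below was not tested.

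Sign changes with all libraries in were those of Gata2 with library totals alone, 0.060 for genotype in GATA2-GMP and 0.10 for the interaction, and of Klf1 in the interaction with the replicate block, -0.10. With each library left out in turn, log2 fold changes in GATA2-GMP ran between -0.29 and 0.080 for Gata2 and -0.065 and 0.18 for Gfi1. In GMP they ran between -0.068 and 0.63 for Gata1, -0.24 and 0.22 for Gata2, -0.0054 and 0.16 for Tal1 and -0.90 and 0.55 for Gfi1b. In the interaction they ran between -0.37 and 0.15 for Gata2, -0.068 and 3.21 for Gata3 and -0.56 and 0.70 for Klf1. The difference in the log2 ratio of Gata1 to Gata2 in GATA2-GMP ran between -0.67 and 0.095, highest without GATA2-GMP WT 3, and that of Gfi1b to Gfi1 in GMP between -0.90 and 0.40, highest without GMP WT 3.

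In GATA2-GMP 44 genes passed by edgeR, against 567 by DESeq2 (1 of the 8), 294 without the filter (1 of the 8), 3 with the replicate block and 1461 in 1 fit of all libraries. With a library left out the number ran between 0 (without GATA2-GMP KO 1, or without KO 3) and 525 (without GATA2-GMP WT 3), with 20 without KO 2, 8 without WT 1 and 28 without WT 2, and 0 or 1 of the 8 passed. In GMP 381 passed, against 964 with the replicate block (1 of the 8) and 17 in 1 fit of all 12 libraries. With a library left out the number ran between 209 (without GMP KO 3) and 398, with 237 without GMP WT 3, and 0 or 1 of the 8 genes passed. In the interaction 11 passed, against 794 by DESeq2, 17 with RLE factors, 40 without the filter, 0 with the replicate block, and between 0 (without GATA2-GMP KO 1) and 1179 (without GATA2-GMP WT 3) with a library left out, with 1 or 2 without any 1 GMP library.

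Scaling by library totals alone put the median log2 fold change of all genes at -0.73 in place of -0.05 between the stages in KO, at -0.93 in place of -0.09 in WT and at 0.18 in place of -0.0049 for genotype in GATA2-GMP. The calls higher and lower were then 3273 and 6681 in place of 4801 and 4976 in KO, 2501 and 6816 in place of 4176 and 4462 in WT, 17 and 20 in place of 12 and 32 in GATA2-GMP, 8 and 7 in place of 4 and 7 in the interaction, and 144 and 254 in place of 79 and 302 in GMP. By DESeq2 they were 261 and 306 in GATA2-GMP. Same-numbered libraries did not deviate together outside GMP (correlations -0.13, -0.23 and -0.41 in GATA2-GMP and -0.04 to 0.04 between the stages), so the numbers were taken as names there; the replicate block changed no call of the 8 genes besides Gfi1 in GMP.

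Depth limits Gata3, Klf1 and Zfpm1: with under 30 counts per GATA2-GMP library, or none, moderate differences between genotypes were not detectable.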
